A study of Homo sapiens with 12 samples.

Results

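A set of 10 α- and β-tubulin genes was followed across 3 human cancer cell lines. They are 4 α-tubulin isotypes (TUBA4A, TUBA1A, TUBA1B and TUBA1C) and 6 β-tubulin isotypes (TUBB, TUBB2A, TUBB2B, TUBB3, TUBB4B and TUBB6), 10 of the 57500 genes in the count table, matched by symbol. All 10 passed the filter on low counts in both comparisons. The set was chosen by the measured rise of TUBA4A in PEO4 cells given TGF-β, around which the other isotypes were gathered, so every value from the TGF-β comparison is a description of the genes as chosen and carries no test. That rise does not involve the comparison of SW620 with SW480. Earlier results of these data were, however, known when the genes were chosen.

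RNA was sequenced after depletion of ribosomal RNA from 12 libraries in 4 groups of 3 biological replicates. SW480 came from a primary colorectal cancer and SW620 from a metastasis of the same patient, and both lines were untreated and kept in DMEM. PEO4 is an ovarian cancer line kept in RPMI medium, and its cells received either control medium or medium with recombinant human TGF-β at 10 ng/mL for 6 days. All cultures contained fetal bovine serum, and each line stands for 1 tumour, so replicates measure the spread between cultures of a line. Since tissue and medium differ together, levels in PEO4 and in the SW lines are set side by side without a test.

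Microtubules are hollow polymers built from dimers of α- and β-tubulin. Each chain is encoded by several genes, called isotypes, whose proteins share a folded core and differ mostly in an acidic tail at the carboxy terminus that lies on the outer surface of the polymer. Enzymes add and remove glutamates on that tail and cut off or restore the last tyrosine of α-tubulin. TUBB is the β isotype most widely used by dividing cells, TUBB4B is also broadly expressed, and TUBB3 and TUBB2B are best known from neurons. TUBA1A is the main α isotype of young neurons, TUBA1B and TUBA1C are general isotypes, and TUBA4A is known from platelets and the nervous system. Cells also adjust tubulin mRNA to the amount of free dimer, by decay of the mRNA while it is being translated.

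The ends of the coding sequences show how the isotypes differ, since they encode the tails. Each line gives, for 8 of the 10 genes, the last 18 codons and the stop codon on the coding strand, 57 bases from the GENCODE 29 transcripts (GRCh38), with the last codon before the stop in capitals.
TUBA4A: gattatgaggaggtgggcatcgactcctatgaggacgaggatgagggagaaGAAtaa
TUBA1C: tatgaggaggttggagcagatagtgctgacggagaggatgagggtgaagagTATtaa
TUBB: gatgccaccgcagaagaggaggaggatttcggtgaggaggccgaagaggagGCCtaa
TUBB2A: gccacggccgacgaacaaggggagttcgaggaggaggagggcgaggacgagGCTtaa
TUBB2B: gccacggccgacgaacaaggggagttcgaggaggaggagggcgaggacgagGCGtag
TUBB3: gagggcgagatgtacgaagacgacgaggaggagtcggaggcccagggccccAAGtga
TUBB4B: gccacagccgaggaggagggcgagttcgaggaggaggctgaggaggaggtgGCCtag
TUBB6: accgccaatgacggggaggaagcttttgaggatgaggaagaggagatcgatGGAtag
TUBA4A ends in a glutamate codon (GAA) and TUBA1C in a tyrosine codon (TAT). TUBB2A and TUBB2B differ only in the last codon and the stop. TUBB3 is the only one of these 8 that ends in a lysine codon (AAG), and TUBB6 the only one that ends in a glycine codon (GGA). Over whole coding sequences the 6 α pairs were 84.4% to 97.2% identical, the 15 β pairs 81.0% to 98.1%, and pairs of an α and a β gene 54.9% to 57.6%.

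The genes lie on 6 chromosomes (GRCh38, GENCODE 29, all annotated as protein coding). TUBA4A (ENSG00000127824) spans chromosome 2, 219249711 to 219278170, on the minus strand, and overlaps STK16 and TUBA4B on the other strand. The other α genes lie together on chromosome 12, with TUBA1B (ENSG00000123416) at 49127782 to 49131397 on the minus strand, TUBA1A (ENSG00000167552) at 49184796 to 49189324 on the minus strand, and TUBA1C (ENSG00000167553) at 49188736 to 49274603 on the plus strand. TUBA1A and TUBA1C overlap each other on opposite strands. TUBB2A (ENSG00000137267) at 3153669 to 3157526 and TUBB2B (ENSG00000137285) at 3224261 to 3231730 are neighbours on the minus strand of chromosome 6, where TUBB (ENSG00000196230) lies at 30720201 to 30725426 on the plus strand. TUBB3 (ENSG00000258947) lies on chromosome 16, 89921392 to 89938761, TUBB4B (ENSG00000188229) on chromosome 9, 137241213 to 137243707, and TUBB6 (ENSG00000176014) on chromosome 18, 12307669 to 12344320, all on the plus strand.

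Near-identical copies limit how surely reads are assigned to some of these genes. Of all 100-base stretches of its transcript, TUBB6 had 100% that occur in no other gene of the annotation, TUBA4A 98.2%, TUBB4B 97.1%, TUBB 94.9%, TUBA1C 88.5% and TUBA1A 81.7%. The share was 62.8% for TUBA1B, 53.8% for TUBB2B and 43.6% for TUBB2A, and TUBB2A and TUBB2B share 814 such stretches with each other. TUBB3 had 11%, because 1487 of its 1670 stretches also belong to AC092143.1, an overlapping transcript on the same strand that had 0 counts in PEO4 and at most 5 in any SW library. How reads with several matches or from overlapping strands were counted is not given in the sources used here, so values of TUBB2A, TUBB2B, TUBA1A, TUBA1B and TUBB3 are uncertain to that extent.

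Libraries held 14.5 to 22.03 in units of 1e6 counts, with group means (SD, n = 3) of 17.4 ± 2.39 for SW480, 18.1 ± 3.77 for SW620, 19.7 ± 1.06 for control PEO4 and 21.2 ± 0.603 for treated PEO4. Summed colorectal markers (6 genes) gave 35.9 to 58.9 CPM (counts scaled to a library total of 1e6 by TMM factors over the 12 libraries) in SW480, 271 to 392 CPM in SW620 and at most 3.31 CPM in PEO4, where CDX2, CDH17, KRT20 and GPA33 had at most 3 counts. Summed ovarian markers (6 genes) gave 2988 to 8681 CPM in PEO4 and 107 to 165 CPM in the SW lines. In both SW lines replicate 2 stood apart. It had 14.3% and 12.8% mitochondrial counts in SW480 and SW620, against 7.59% to 11.7% in the other 4 SW libraries, and 8 of the 10 tubulin genes were at their lowest in it in both lines, where 31.4% of all tested genes were. For these 8 genes, which are all but TUBB3 and TUBB6, the level in replicate 2 was 0.322 to 0.592 times the mean of replicates 1 and 3, while the median of all tested genes was 1.01 times in SW480 and 0.972 times in SW620. The part of these libraries in the SW results was not tested, and values without both replicates 2 are given for each of the 10 genes. SW620 replicate 3 carried reads like those of PEO4, estimated at 1.13% of its counts from 21 genes, which made up 3.88% of its TUBB6 level and at most 0.965% of its level of any other tubulin gene here.

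TUBA4A ran at different levels in the 4 groups. Its level was 109.7, 55.3 and 111 CPM in SW480 replicates 1, 2 and 3, and 76.9, 49.8 and 135 CPM in SW620. In PEO4 it was 23.6, 22.3 and 24.2 CPM in control medium and 57.6, 68.6 and 63.7 CPM with TGF-β. The PEO4 control libraries were the lowest of all 12 and close together. The treated libraries reached the range of the SW libraries only through replicate 2 of both lines, at 55.3 and 49.8 CPM. The other SW libraries, at 76.9 to 135 CPM, lay above every treated library. SW480 and SW620 overlapped each other. Bulk RNA levels are relative to all RNA of the culture, so fewer cells with an mRNA and less of it per cell cannot be told apart.

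TUBA1A followed the same order of groups as TUBA4A. It had 92.0, 55.0 and 106 CPM in SW480 libraries, 49.1, 28.8 and 82.8 CPM in SW620 libraries, 14.8, 7.14 and 5.07 CPM in PEO4 control and 40.5, 33.2 and 18.4 CPM in PEO4 with TGF-β. The range of the SW620 libraries overlapped both that of SW480 and that of treated PEO4, and PEO4 control lay below the other 3 groups. The general isotypes TUBA1B and TUBA1C moved over a narrower range. TUBA1B lay between 126 and 417 CPM and TUBA1C between 85.8 and 257 CPM over the 12 libraries, neighbouring groups in the order of means overlapped throughout, and the highest group mean was 1.69 times the lowest for TUBA1B and 1.35 times for TUBA1C.

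Among the β genes, TUBB was also similar across lines. It ranged from 413 to 1088 CPM, with group means from 615 CPM in SW480 to 973 CPM in PEO4 with TGF-β, a 1.58-fold range in which all neighbouring groups overlapped. TUBB4B had 456, 275 and 478 CPM in SW480 libraries, 200.3, 139.5 and 321 CPM in SW620 libraries, 111, 93.7 and 90.1 CPM in PEO4 control and 126, 125 and 87.6 CPM in PEO4 with TGF-β. Every SW library was above every PEO4 library, and neither the 2 SW lines nor the 2 PEO4 groups separated from each other.

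TUBB2A and TUBB2B, the pair of near-copies on chromosome 6, were high in SW480 and low in the other 3 groups. TUBB2A had 47.1, 23.2 and 49.3 CPM in SW480, against 2.77, 1.61 and 4.78 CPM in SW620, 2.00, 1.73 and 2.33 CPM in PEO4 control and 3.52, 4.24 and 2.57 CPM with TGF-β. TUBB2B had 57.1, 35.5 and 62.6 CPM in SW480 libraries, 6.42, 2.48 and 8.96 CPM in SW620 libraries, 0.516, 0.173 and 0.310 CPM in PEO4 control and 0.881, 0.881 and 0.938 CPM with TGF-β. The SW480 libraries stood above all others for both genes, and for TUBB2B all 4 groups were apart from their neighbours. The lowest TUBB2B values rest on 3 to 9 counts a library in PEO4 control and 16 to 19 with TGF-β, and 3 counts is the level that a count of 0 also allows.

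TUBB6 had an order of groups of its own, and TUBB3 followed the order of TUBA4A. TUBB6, a β isotype found in many non-neuronal tissues, had 135, 84.6 and 128 CPM in SW480 libraries, 11.1, 14.6 and 14.3 CPM in SW620 libraries, 49.8, 39.4 and 34.7 CPM in PEO4 control and 60.4, 56.8 and 52.1 CPM with TGF-β. SW620 was the lowest group, and no neighbouring groups overlapped. TUBB3 had 11.5, 9.64 and 9.36 CPM in SW480 libraries, 9.39, 7.69 and 11.7 CPM in SW620 libraries, 2.92, 1.79 and 1.5 CPM in PEO4 control and 6.94, 5.45 and 4.0 CPM with TGF-β. The SW lines overlapped for TUBB3 and both lay above PEO4, where treated and control libraries were apart.

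**Figure D1:**
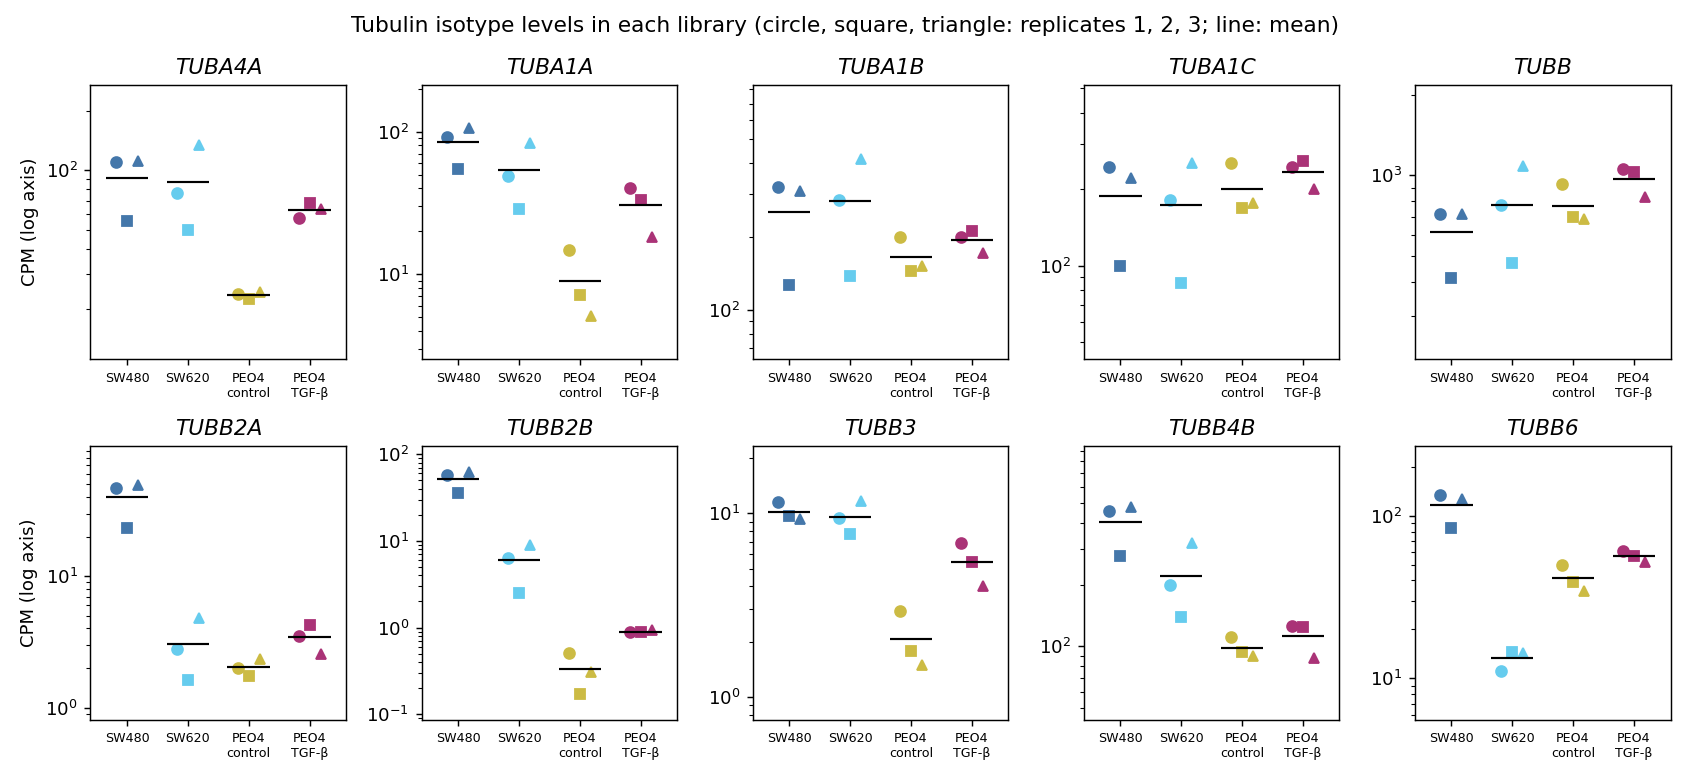
Level of each of the 10 tubulin genes in every library, in CPM on a log axis that differs between panels, by group. Circles, squares and triangles are replicates 1, 2 and 3 and the line is the group mean. TUBB2A, TUBB2B and TUBB6 separate SW480 from SW620. Treated and control PEO4 are apart for TUBA4A, TUBA1A, TUBB2A, TUBB2B, TUBB3 and TUBB6. Squares (replicate 2) are low in both SW lines for all genes but TUBB3 and TUBB6.

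To compare genes with each other, levels were divided by the length of the merged exons and expressed as a share of the summed level of the 4 α or the 6 β genes in the same library. In SW480 the β genes were dominated by TUBB and TUBB4B in nearly equal parts, with 40.6% ± 0.503 for TUBB and 42.4% ± 0.541 for TUBB4B (SD, n = 3). In SW620 TUBB held 67.0% ± 1.74 and TUBB4B 30.1% ± 1.57. The shares of TUBB6, TUBB2B and TUBB2A were lower in SW620, going from 6.30% ± 0.441 to 1.06% ± 0.525 for TUBB6, from 5.23% ± 0.186 to 0.745% ± 0.189 for TUBB2B and from 5.02% ± 0.543 to 0.494% ± 0.0660 for TUBB2A. The shares of these 5 β genes did not overlap between the lines, and a two-sided exact permutation test gave p = 0.1 for each, the smallest that 3 against 3 libraries allow. TUBB3 held 0.538% ± 0.160 in SW480 and 0.662% ± 0.139 in SW620 (exact permutation p = 0.4).

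On the α side TUBA1B was the largest share in both SW lines, with 43.8% ± 2.59 in SW480 and 50.9% ± 1.27 in SW620, and TUBA1A went from 16.2% ± 2.43 to 10.3% ± 0.719 (SD, n = 3, exact permutation p = 0.1 for each). TUBA1C held 25.6% ± 1.13 and 24.6% ± 1.15 (exact permutation p = 0.4). The share of TUBA4A was 13.7% to 15.7% in SW480 libraries and 12.5% to 15.7% in SW620 libraries (exact permutation p = 1.0). Replicate 2, low in level in both lines, had shares apart from those of replicates 1 and 3 for some genes. In SW620 it had 1.66% for TUBB6 against 0.806% and 0.708%, and 0.528% for TUBB2B against 0.872% and 0.836%. With 10 shares compared, none could pass 0.05 in this design.

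PEO4 used another mixture, in which TUBB held 79.6% ± 0.877 of the β level in control medium and 80.4% ± 0.748 with TGF-β, and TUBB4B held 16.3% ± 0.869 and 14.7% ± 0.968 (SD, n = 3). Among the α genes of control PEO4, TUBA1B held 47.4% ± 1.10 and TUBA1C 44.0% ± 1.26, and TUBA4A held 6.01% ± 1.06. With TGF-β the share of TUBA4A was 12.1% ± 1.71, that of TUBA1A 6.82% ± 2.01 after 2.58% ± 0.953, that of TUBA1B 41.9% ± 0.611 and that of TUBA1C 39.1% ± 0.36. None of the 4 α shares overlapped between treated and control libraries, which follows in part from the choice of TUBA4A, since shares sum to a fixed total.

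The summed level of the 4 α genes, in CPM per kilobase, was 158 ± 62.3 in SW480, 153 ± 75.6 in SW620, 97.7 ± 19.9 in PEO4 control and 129 ± 15.1 in PEO4 with TGF-β. The sum of the 6 β genes was 451 ± 126, 346 ± 138, 288 ± 48.1 and 360 ± 48.7 in the same order, and the ranges overlapped within each comparison. The β sum was 2.14 to 3.53 times the α sum over all 12 libraries, and it was highest within each SW line in replicate 2 (3.53 and 2.75 times). Dividing by coding length in place of exon length gave other shares for the same order of groups, among them 9.43% for TUBB6 and 3.16% for TUBB2A in SW480.

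**Figure D2:**
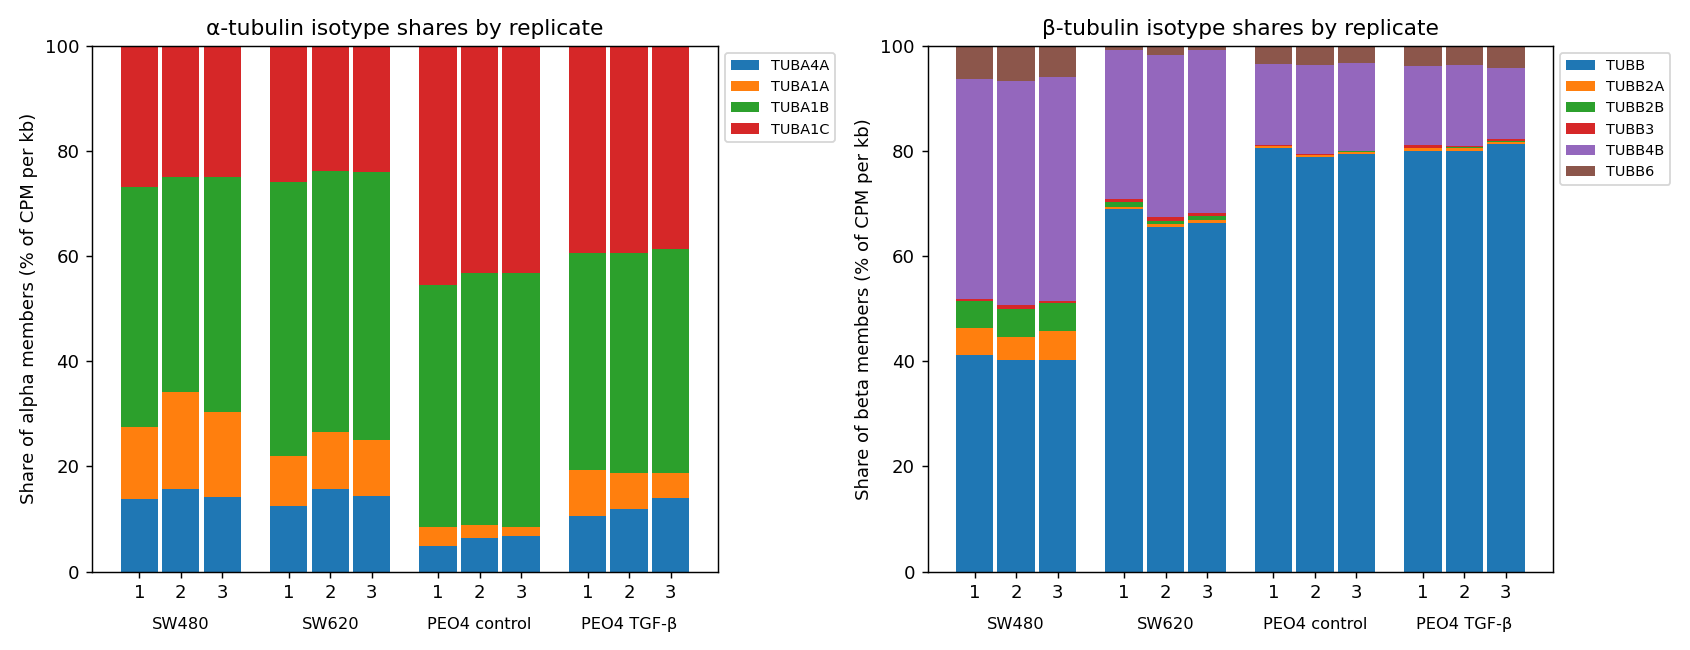
Share of each isotype in the summed length-scaled level of the α genes and of the β genes, in percent, as stacked bars for each of the 12 libraries by group and replicate. TUBB takes 40.6% of the β level in SW480, 67.0% in SW620 and about 80% in PEO4, and the TUBA4A part of the α bars is smallest in control PEO4 (6.01%).

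Between the line from the metastasis and the line from the primary tumour, 3 isotypes separated clearly. TUBB2A, TUBB2B and TUBB6 fell in SW620 and the other 7 tubulin genes did not pass the test. TUBB2A fell from 39.9 ± 14.5 to 3.06 ± 1.60 CPM (SD, n = 3), 12.8-fold lower (log2 fold change -3.67 ± 0.42 SE, adjusted p 0.000216 by the quasi-likelihood test of edgeR). TUBB2B fell from 51.7 ± 14.4 to 5.95 ± 3.27 CPM, 8.53-fold lower (log2 fold change -3.09 ± 0.42, edgeR adjusted p 0.000559). TUBB6 fell from 116 ± 27.1 to 13.3 ± 1.92 CPM, 8.54-fold lower (log2 fold change -3.09 ± 0.23, edgeR adjusted p 1.90e-05). The libraries of the lines did not overlap for these 3 genes and overlapped for the other 7.

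That is 3 of 10 genes past the threshold, all lower, where 30.5% of the 20941 genes tested passed it, 13.5% higher and 17.0% lower. The share of tubulin genes called was thus near the background. In the same way 3 of 10 had replicate values that did not overlap, all lower in SW620, against 44.2% of all tested genes, 23.4% lower. The median log2 fold change of the 10 was -0.37, and that of all genes tested was 0.03. Over 19 alternative settings the log2 fold change ran from -4.16 to -3.33 for TUBB2A, from -3.52 to -2.68 for TUBB2B and from -3.35 to -2.86 for TUBB6, and all 3 stayed past the threshold in edgeR, DESeq2 and limma-voom alike. Without both replicates 2 the 3 values were -3.65 ± 0.25, -2.94 ± 0.19 and -3.35 ± 0.17, and without SW620 replicate 3 they were -4.16 ± 0.41, -3.52 ± 0.41 and -3.16 ± 0.27 (SE).

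TUBB4B and TUBA1A were nearest to the threshold among the rest. TUBB4B averaged 403 ± 111 CPM in SW480 and, in SW620, 220.1 ± 92.1 CPM (SD, n = 3). Its log2 fold change was -0.85 ± 0.33 (edgeR adjusted p 0.0789). It passed in 10 of 19 alternatives, among them DESeq2 (adjusted p 0.0325), the fit without both replicates 2 (edgeR, adjusted p 0.0224), the fit without SW480 replicate 2 (edgeR, adjusted p 0.0403) and the fit without SW620 replicate 3 (edgeR, adjusted p 0.00966), and its adjusted p in the authors' deposited table was 0.0296. TUBA1A averaged 84.5 ± 26.6 CPM in SW480 and, in SW620, 53.6 ± 27.3 CPM (log2 fold change -0.64 ± 0.37, edgeR adjusted p 0.234). It passed in 3 of 19 alternatives, among them the fit without SW620 replicate 3 (edgeR, adjusted p 0.0239), and not without both replicates 2 (log2 fold change -0.57 ± 0.23, edgeR adjusted p 0.0928). Leaving out SW620 replicate 3 thus raised the number of tubulin genes past the threshold from 3 to 5. The share of all tested genes that passed was 32.8% without it and 30.5% with it.

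TUBA4A, TUBA1B, TUBA1C, TUBB and TUBB3 did not pass the test, and of these TUBB passed in 2 of 19 alternatives. TUBA4A averaged 91.9 ± 31.7 CPM in the SW480 libraries and 87.2 ± 43.5 CPM in those of SW620 (n = 3 each, SD), and its log2 fold change was -0.06 ± 0.37 (edgeR adjusted p 0.929). For the others it was 0.17 ± 0.43 for TUBA1B, -0.10 ± 0.42 for TUBA1C, 0.36 ± 0.33 for TUBB and -0.06 ± 0.22 for TUBB3, with adjusted p from 0.466 to 0.890 in edgeR. The SEs of 4 of these 5 were 0.33 to 0.43. In the same fit TUBB4B, at -0.85 ± 0.33, did not pass, so changes of that size could also be missed with these replicates. Without both replicates 2 the values were -0.04 ± 0.24 for TUBA4A, 0.17 ± 0.20 for TUBA1B, -0.08 ± 0.18 for TUBA1C, 0.40 ± 0.19 for TUBB and 0.03 ± 0.21 for TUBB3 (SE), with adjusted p from 0.151 to 0.924 in edgeR. In the authors' deposited table, 4 of the 10 were past 0.05 in this comparison, which are TUBB2A, TUBB2B, TUBB4B and TUBB6. DESeq2 as run here called 34.0% of all tested genes.

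Proliferation and neuronal markers differed between the lines beside these genes, and their part in the tubulin values was not tested. The 10 proliferation genes summed to 1534 to 2240 CPM in SW480 libraries and to 989 to 1544 CPM in those of SW620, and CCNA2, AURKA, BUB1 and MKI67 fell in SW620 (4 of 10 called, all lower; MKI67 was not past the threshold without SW480 replicate 1 or 3 or SW620 replicate 1, with an edgeR adjusted p up to 0.152). The 8 neuronal markers summed to 13.6 to 18.3 CPM in SW480 libraries and to 23.2 to 29.9 CPM in those of SW620, with GAP43 and SYP called higher and SNAP25 called lower (edgeR log2 fold changes 3.02, 0.70 and -0.98), and the calls of SYP and SNAP25 were lost without SW480 replicate 1, 2 or 3 or SW620 replicate 1, and that of SYP also without SW620 replicate 3. ELAVL3, ELAVL4, NEFL and NEFM had at most 3 counts in every library of both lines. The 5 fibroblast markers summed to 2.57 to 2.83 CPM and 7.30 to 14.3 CPM. Of 38 annotated tubulin pseudogenes 4 reached 50 counts in a library. Among them, TUBB2BP1 had 15 to 53 counts in SW480 and at most 1 in SW620, TUBBP5 had 64 to 105 and 1 to 3, and TUBBP6 had 29 to 69 and 535 to 804.

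In PEO4, TUBA4A was the tubulin gene the set was chosen for, and it was called in this comparison. Its mean was 23.4 ± 0.980 CPM in control medium and 63.3 ± 5.54 CPM with TGF-β (SD, n = 3). The difference was 2.65-fold (log2 fold change 1.40 ± 0.09 SE). No other of the 10 was called, so 1 of 10 passed where 2.26% of the 19064 genes tested did, 1.27% higher and 0.991% lower. Nothing is read from that count, since the rule used this contrast.

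The other isotypes had fitted values of the same sign. TUBA1A had 9.0 ± 5.12 CPM in control and 30.7 ± 11.3 CPM in treated libraries (SD, n = 3), and its log2 fold change was 1.74 ± 0.38, above that of TUBA4A and with a larger SE. TUBB2B had a log2 fold change of 1.39 ± 0.45, TUBB3 1.37 ± 0.31 (2.07 ± 0.752 and 5.46 ± 1.47 CPM), TUBB2A 0.73 ± 0.27 and TUBB6 0.42 ± 0.13. The 4 genes of highest level per kilobase in PEO4 had the smallest values, with 0.31 ± 0.13 for TUBB, 0.20 ± 0.14 for TUBA1C, 0.20 ± 0.12 for TUBA1B and 0.17 ± 0.14 for TUBB4B. All 10 log2 fold changes were above 0, where 9088 of all 19064 genes tested were, and their median was 0.57 against -0.02 for all genes tested. They were also above 0 in every alternative in which they were computed, which refit the same libraries. Nothing is read from these values, since the rule used this contrast.

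For 6 of the 10 (TUBA4A, TUBA1A, TUBB2A, TUBB2B, TUBB3 and TUBB6) every treated library was above every control library, where 21.5% of all tested genes had groups that did not overlap, 11.1% with treated higher. For the other 4, PEO4 control replicate 1 lay within the range of the treated libraries. TUBB had 929 CPM in it against 697 and 685 CPM in control replicates 2 and 3 and 831 to 1057 CPM with TGF-β. For TUBB4B all 3 control libraries, at 90.1 to 110.5 CPM, lay within the treated range of 87.6 to 126 CPM. Without PEO4 control replicate 1, 4 of the 10 were called, TUBA4A, TUBA1A, TUBB3 and TUBB6, where 5.38% of all tested genes were. Without PEO4 TGF-β replicate 3 TUBA4A and TUBA1A were called, where 1.13% of all tested genes were. The summed proliferation markers were 765 to 991 CPM in control and 719 to 954 CPM in treated libraries with 0 of 10 genes called (edgeR), and 3 of 6 ovarian markers, MSLN, EMX2 and WT1, fell with TGF-β (edgeR adjusted p 0.00375, 0.0235 and 0.0274). The call of EMX2 was lost without any library but control replicate 1, and that of WT1 without control replicate 2 or any treated library (up to 0.151). In the model of all 12 libraries neither EMX2 nor WT1 was called (edgeR adjusted p 0.602 and 0.114). In the authors' deposited table TUBA4A, TUBA1A and TUBB3 were past 0.05. DESeq2 as run here called 5.07% of all tested genes in PEO4.

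**Figure D3:**
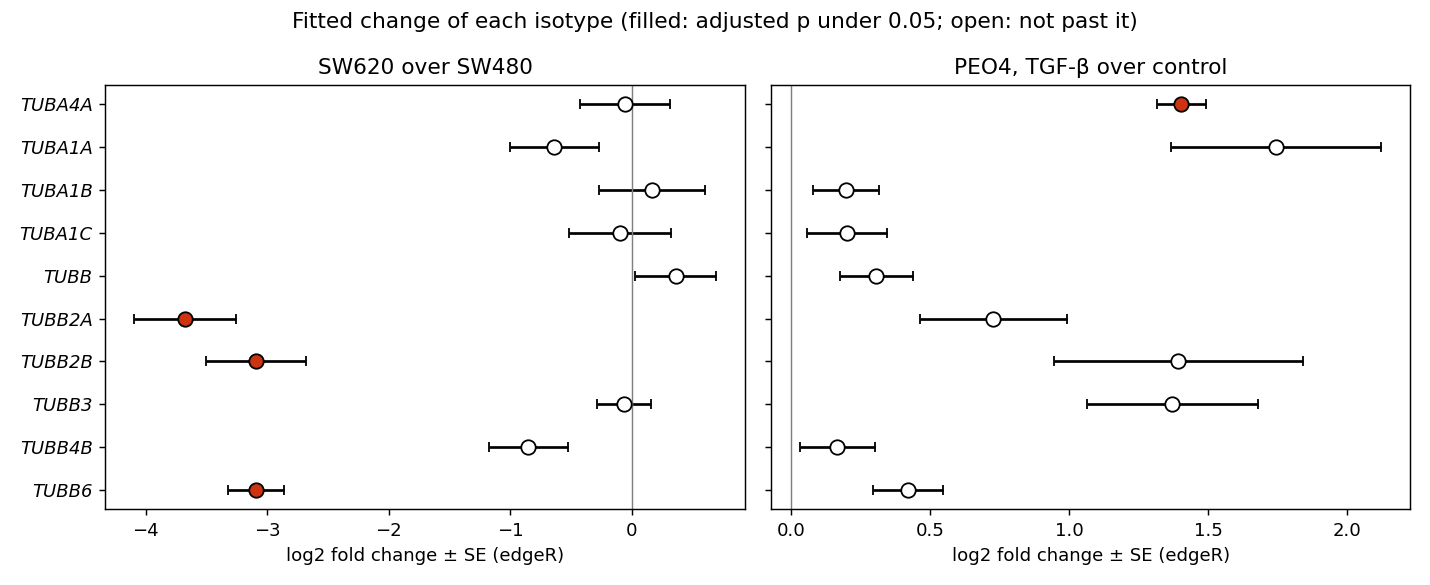
Fitted log2 fold change of each tubulin gene with its SE (horizontal bars), SW620 over SW480 and PEO4 with TGF-β over control, with a different horizontal scale in each panel. Filled points passed an adjusted p of 0.05 in edgeR and open points did not. TUBB2A, TUBB2B and TUBB6 lie near -3 or below in the SW panel, and all 10 points are above 0 in the PEO4 panel, in which the genes were chosen.

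The rest of the tubulin system was read from 5 lists of genes, 99 in all, written with earlier results of these data known. In SW620 against SW480, 90 of them were tested and 30 passed the threshold, 15 higher and 15 lower, a share near the 30.5% of all genes. Of the 8 other tubulin genes tested, TUBB4A, a β isotype of oligodendrocytes and neurons, fell from 9.78 ± 1.81 to 1.13 ± 0.449 CPM (SD, n = 3; log2 fold change -3.08 ± 0.35, edgeR adjusted p 0.000216). TUBE1, the ε-tubulin of centrioles, rose from 12.4 ± 0.815 to 24.5 ± 5.17 CPM (log2 fold change 1.01 ± 0.19, edgeR adjusted p 0.00404). The β isotypes called lower in SW620 were thus TUBB2A, TUBB2B, TUBB6 and TUBB4A, where 17.0% of all tested genes were called lower. TUBB4B, with a log2 fold change of -0.85, did not pass. Of the 9 genes of the γ-tubulin ring, which nucleates microtubules, TUBGCP4 alone passed (log2 fold change 0.52 ± 0.14, edgeR adjusted p 0.0238).

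Of 21 genes tested that fold tubulin or act in its assembly into dimers, 3 passed. TBCA, a chaperone that binds β-tubulin, rose by 0.76 ± 0.19 on the log2 scale (edgeR adjusted p 0.0154). TTC5, which recognises tubulin chains during translation and triggers decay of their mRNA, rose from 14.8 ± 1.49 to 23.9 ± 4.86 CPM (SD, n = 3; log2 fold change 0.71 ± 0.19, edgeR adjusted p 0.0215). TBCB, a chaperone of α-tubulin whose libraries overlapped between the lines and which was singled out after its values were seen, fell by 0.80 on the log2 scale (edgeR adjusted p 0.0439). The calls of TBCA, TTC5 and TUBGCP4 were lost without SW480 replicate 1, 2 or 3, that of TTC5 also without SW620 replicate 1 and that of TUBGCP4 also without SW620 replicate 1 or 3, with adjusted p up to 0.111 in edgeR.

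Of the 22 genes on the list for tubulin modification, on the tail or elsewhere, 10 passed, 4 higher and 6 lower. AGTPBP1, which trims glutamate chains from tubulin, fell from 43.1 ± 4.39 to 9.07 ± 0.577 CPM (SD, n = 3; log2 fold change -2.23 ± 0.16, edgeR adjusted p 1.86e-05). VASH1, which cuts the last tyrosine from α-tubulin, fell from 26.9 ± 2.31 to 11.5 ± 1.33 CPM (log2 fold change -1.21 ± 0.17, edgeR adjusted p 0.000650). AGBL3, of the same family as AGTPBP1, rose from 2.37 ± 0.758 to 5.84 ± 1.21 CPM (edgeR adjusted p 0.0157, lost without SW480 replicate 1 or 3 or SW620 replicate 1, up to 0.0719). The glutamylase gene TTLL6 fell from 1.21 ± 0.0675 to 0.276 ± 0.231 CPM (edgeR adjusted p 0.0411), at 1 to 11 counts a library in SW620, and its call was lost without SW480 replicate 1, 2 or 3 or SW620 replicate 1 or 2 (up to 0.125), and without both replicates 2 (0.0962).

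Of 30 genes of microtubule-associated proteins and dynamics, 14 passed, 7 higher and 7 lower. DCLK1, a kinase that binds microtubules, averaged 113 ± 38.9 CPM in SW480 but 0.584 ± 0.527 CPM in SW620 (SD, n = 3; log2 fold change -7.59 ± 0.65, edgeR adjusted p 4.28e-05). MAP6, which stabilises microtubules, fell from 6.54 ± 0.679 to 0.903 ± 0.104 CPM, and MAPT, the tau protein of neurons, from 30.1 ± 4.0 to 5.54 ± 0.345 CPM (edgeR adjusted p 0.000132 and 1.93e-05). TPPP3, which promotes polymerisation, rose from 1.75 ± 0.374 to 13.2 ± 6.61 CPM (log2 fold change 2.93 ± 0.43, edgeR adjusted p 0.000991). The count of 30 over the 5 lists was 15 without SW480 replicate 1, without SW480 replicate 3 or without SW620 replicate 1.

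With TGF-β in PEO4, 0 of the 86 genes tested on these lists passed the threshold in edgeR, where 2.26% of all genes did. At an unadjusted p under 0.05 in edgeR there were 20, of which 19 were higher with TGF-β. The share of all tested genes at that unadjusted threshold is not given here, so nothing is read from that count. DESeq2 called 4 and limma-voom 1, and edgeR called 7 without PEO4 control replicate 1. Of all tested genes the shares called were 5.07% in DESeq2, 2.27% in limma-voom and 5.38% without that library. The list medians were 0.21 for the other tubulins, -0.03 for the γ-tubulin ring, 0.12 for folding, 0.12 for tubulin modification and 0.09 for microtubule-associated proteins, beside -0.02 for all genes.

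**Figure D4:**
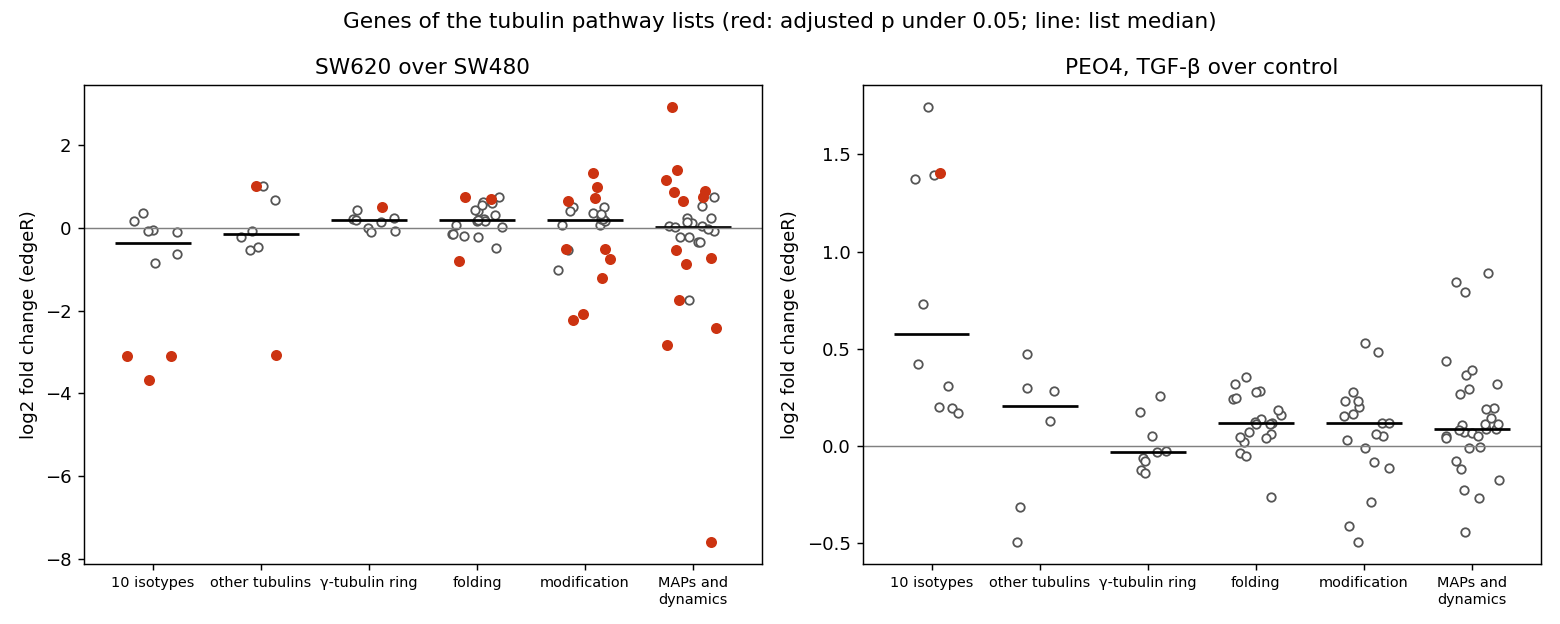
Log2 fold change (edgeR) of each tested gene of the 10 tubulin isotypes and of the 5 pathway lists, for SW620 over SW480 and for PEO4 with TGF-β over control, with a different vertical scale in each panel. Red points passed an adjusted p of 0.05 and lines are list medians. In the SW panel 30 of 90 list genes are red, and in the PEO4 panel 1 point is red, TUBA4A.

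TUBA4A has close neighbours on chromosome 2 that were read in the same libraries. DNAJB2, a co-chaperone gene on the other strand (219279267 to 219286900), starts 1097 bases beyond the outermost annotated end of TUBA4A, at 219278170. The RefSeq window at the start of TUBA4A lies much farther from it, at 219253869 to 219254168. DNAJB2 rose with TGF-β in PEO4 from 45.1 ± 8.82 to 81.0 ± 5.84 CPM (SD, n = 3). Its log2 fold change was 0.81 ± 0.12 (edgeR adjusted p 0.0124), and the call was lost without PEO4 control replicate 2 (0.0945), TGF-β replicate 1 (0.0564) or TGF-β replicate 2 (0.0696). STK16, which overlaps the end of TUBA4A, had 28.1 ± 1.54 CPM in control and 28.7 ± 2.64 CPM with TGF-β (edgeR adjusted p 0.999). GLB1L and ANKZF1 had log2 fold changes of -0.08 ± 0.23 and 0.26 ± 0.10 (edgeR adjusted p 0.897 and 0.241).

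In SW620, DNAJB2 fell from 50.1 ± 4.43 to 18.7 ± 2.93 CPM (SD, n = 3; log2 fold change -1.40 ± 0.17, edgeR adjusted p 0.000297), while the value of TUBA4A was -0.06 ± 0.37. PTPRN fell from 1.66 ± 0.314 to 0.604 ± 0.109 CPM (edgeR adjusted p 0.0298, lost without any 1 of 5 SW libraries, all but SW620 replicate 3, up to 0.102, and without both replicates 2, 0.104). STK16, GLB1L and ANKZF1 did not pass, with log2 fold changes of -0.23, -0.54 and 0.10. TUBA4B, which overlaps TUBA4A and shares 38 of its 100-base stretches, had at most 13 counts in a library and was not tested.

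The start of TUBA4A is printed because the data bear on its level in PEO4. The RefSeq promoter window (GRCh38.p14, chr2:219253869-219254168, minus strand, 250 bases before to 50 after the start) reads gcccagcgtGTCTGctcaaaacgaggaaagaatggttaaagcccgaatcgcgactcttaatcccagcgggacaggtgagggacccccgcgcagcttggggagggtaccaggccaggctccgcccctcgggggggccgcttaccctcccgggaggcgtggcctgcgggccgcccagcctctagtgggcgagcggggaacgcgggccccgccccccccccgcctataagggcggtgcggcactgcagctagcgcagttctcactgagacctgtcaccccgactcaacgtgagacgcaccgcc, with capitals at GTCTG. Those letters are CAGAC on the other strand, the short element that SMAD proteins, the transcription factors of the TGF-β pathway, are known to bind. The element occurred once in the window, 241 bases before the start, and CAGAC on either strand was present in 45.3% of 35116 promoter windows of the same length. Among the other tubulin genes, it was present in a window of TUBA1A, TUBA1B, TUBA1C, TUBB, TUBB2B and TUBB3. It was absent from those of TUBB2A, TUBB4B and TUBB6. Some genes, such as TUBA1C, have several windows, while the 45.3% is a share of windows. Other short elements were searched as well. The TUBA4A window also held GGGCGG, an element of SP1, which was present in 45% of the promoter windows. GGCGCC, another SMAD element, was not found in it and was present in 19.2% of the promoter windows. The CAGAC match describes the letters of the window, and binding was not measured.

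Genes whose level most resembled that of TUBA4A were ranked by Pearson's r of log2(CPM + 1) over the 12 libraries, among 10403 genes with a mean of at least 10 CPM. These 12 points share lines and libraries, and PEO4 and the SW lines form separate groups, so r describes these libraries and was not tested. The 5 highest were ZFAND2A (r = 0.964), SCD (0.939), CLDN11 (0.938), MSN (0.935) and UBL4A (0.931). CLDN11, a claudin of tight junctions, had mean levels of 210.2 CPM in SW480, 188 in SW620, 32.3 in PEO4 control and 111 with TGF-β. Among the tubulin genes r with TUBA4A was 0.915 for TUBA1A, 0.887 for TUBB3, 0.779 for TUBB4B, 0.751 for TUBA1B, 0.709 for TUBB2B and 0.597 for TUBB2A, and 0.252, 0.190 and 0.0893 for TUBA1C, TUBB and TUBB6.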

How the data were processed

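RNA was sequenced in 12 libraries, 3 per group, grouped by the labels' titles, which name biological replicates; what a replicate was beyond that is not stated, and p-values measure only the spread between these samples. Per the submitters' processing notes, Trimmomatic 0.36, STAR 2.5.2b, featureCounts of Subread 1.5.2, DESeq2 and the build GRCh38 were used. Annotation, strand use and the treatment of reads with several matches are not given in the sources used here. Whole-number counts for 57500 genes were deposited by the authors, and all tests started from these counts. The authors' deposited tables also hold a signal per library (counts over a size factor), log2 fold changes and, per the file headers, p-values, which served only to compare calls.

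The 6 libraries of a comparison were fitted apart from the others, using edgeR 4.0.16 under R 4.3.3 (filterByExpr, TMM factors, glmQLFit and glmQLFTest, two-sided, Benjamini-Hochberg over all genes tested, threshold 0.05). CPM values use TMM factors over the 12 libraries. Each SE is the log2 fold change over the square root of F. Depth was 14.5 to 22.03 in units of 1e6 counts, and 3 counts were taken as the floor that a count of 0 allows, for counting error only. Shares divide CPM by kilobases of merged exons in GENCODE 29, in which 56898 gene IDs were found. Promoter sequence came from RefSeq tables. The coding ends of 2 tubulin genes are not reported here. The fits were tested on simulated data.

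The tubulin genes, the gene lists and the tests were chosen with earlier results of these data known. Named were all 10 tubulin genes, up to 4 genes per list and comparison with the largest log2 fold change among those past the threshold with groups that did not overlap, the neighbours of TUBA4A, and the 5 genes most correlated with it. The folding gene TBCE is not analysed here, and TTLL13 was matched as TTLL13P. Megakaryocyte markers (5 genes) summed to at most 2.34 CPM in any library. Alternatives were DESeq2 1.42.0, limma-voom (limma 3.58.1), scaling by RLE, by the upper quartile and by total counts, leaving off the filter or asking for 10 counts in every library, all 12 libraries in 1 model, a GC correction (span 0.3), the replicate number as a block with and without it, glmTreat against a 2-fold change, coding length, and leaving out each library. Leaving out both SW replicates 2 was added after seeing the data.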

Additional observations from a re-analysis of the deposited data

How the results depend on the processing

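TUBB2A, TUBB2B and TUBB6 stayed past the threshold and lower in SW620 in all 19 alternatives. The 3 tubulin genes called there became 3 to 5 without 1 library. The PEO4 count of 1 became 2 under upper quartile scaling, the GC correction or all 12 libraries in 1 model, 3 under total counts or DESeq2, 4 with no filter, 0 under glmTreat, and 1 to 4 without 1 library. The 30 list genes called in SW became 7 under glmTreat and 15 to 33 without 1 library, and the 0 of PEO4 became 1 under upper quartile, total counts, limma-voom or the GC correction, 4 under DESeq2, 7 with no filter and 0 to 7 without 1 library. Of all genes, 6385 were called in SW, 2504 under glmTreat and 4253 to 7419 without 1 library, and 431 in PEO4, 967 under DESeq2, 1457 with no filter, 213 with all 12 libraries, 9 under glmTreat and 72 to 1080 without 1 library. By coding length the TUBA4A share in SW480 was 15.9%, and TUBB6 shares were 9.43% in SW480, 4.5% in PEO4 control and 4.91% with TGF-β.

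With the replicate number as a block, 6 tubulin genes were called in SW and 5 in PEO4, 49 and 10 list genes, and 10667 and 2102 of all genes. In SW the block added TUBB4B, TUBA1A (edgeR adjusted p 0.00023) and TUBB (0.0447), as did the block with the GC correction (6.61e-05 and 0.00357 for the latter 2). The block with the GC correction gave 6 and 4, 55 and 8, and 11291 and 1807, with 55.8% of SW calls higher against 44.4%. Deviations of same-numbered libraries from their group means correlated at 0.0159, 0.670 and 0.567 in SW and 0.291, -0.140 and 0.481 in PEO4. Libraries of unlike number correlated at -0.630 to 0.268 in SW and -0.486 to 0.239 in PEO4. Not every library correlated best with its own number. What same-numbered libraries share is not stated, and its part in these results was not tested. The GC correction moved the SW median log2 fold change of all genes from 0.03 to 0.14.

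Small SW values changed sign. TUBA4A was 0.13 under the GC correction, 0.11 with the block and GC correction and -0.53 to 0.27 without 1 library. TUBA1B was -0.25 to 0.54 without 1 library. TUBA1C was 0.015 under the GC correction and -0.48 to 0.28 without 1 library. TUBB3 was 0.14 under the GC correction with or without the block, 0.033 without both replicates 2 and -0.24 to 0.12 without 1 library. The lowest of these were without SW620 replicate 3 and the highest without SW620 replicate 2. In PEO4, STK16 was 0.0005 under RLE scaling and DESeq2, 0.027 with no filter, 0.015 with all 12 libraries and -0.035 to 0.061 without 1 library, and GLB1L was -0.1995 to 0.14 without 1 library. The causes were not tested. Low counts limit TUBB2B in PEO4.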
